A study of Mus musculus with 4 samples.

Results

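The genes described here are 10 readers of N6-methyladenosine (m6A), chosen by name from the deposited table of 50559 genes without use of their values. They were the 5 genes with a YTH domain (*Ythdf1*, *Ythdf2*, *Ythdf3*, *Ythdc1* and *Ythdc2*), the 3 *Igf2bp* genes, *Fmr1* and *Hnrnpa2b1*. All 10 genes were found, and all 10 had a mean of at least 10 reads over the libraries, the level above which ratios were taken, as did 18586 genes in all.

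m6A is the most common internal modification of messenger RNA, placed by a writer complex around METTL3 and METTL14 and removed by the erasers FTO and ALKBH5. Readers are the proteins that bind it. YTH proteins hold the methylated base in a pocket of their YTH domain: the closely related YTHDF1, YTHDF2 and YTHDF3 act in the cytoplasm, where YTHDF2 recruits the CCR4-NOT deadenylase and so promotes decay, whereas YTHDC1 acts in the nucleus and YTHDC2 is a helicase best known from germ cells. IGF2BP proteins are associated with stabilisation of their targets, FMRP (from *Fmr1*) with translational control, and HNRNPA2B1 with nuclear processing. Because the 3 YTHDF proteins bind similar sites, the level of *Ythdf1* and *Ythdf3* upon depletion of YTHDF2 is a measurement of interest in itself.

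RNA-seq was performed on E14 mouse embryonic stem cells (ESCs), grown without feeder cells in serum replacement and leukemia inhibitory factor, in 4 libraries, 1 per group. The control library (shScram+EV) came from cells with a scrambled hairpin and an empty vector, and the knockdown library (shYthdf2+EV, *Ythdf2*-KD) from cells with a *Ythdf2* hairpin and the same vector. The wild-type library (shYthdf2+DF2WT) and the mutant library (shYthdf2+DF2Mut) came from cells with the *Ythdf2* hairpin that also carried YTHDF2 in its wild-type form or in a form deficient in m6A binding. Per the study's methods, knockdown lines were stable lentiviral lines obtained by puromycin selection, in ESCs that carry a tdTomato reporter driven by the MERVL promoter. The labels do not say which hairpin was used, nor the species or the mutated residue of the constructs, nor whether a line was 1 clone. The study's methods describe RNA-seq replicates for each group, but the labels give 1 library per group, and whether a library is a single replicate or a pool was not stated. Replicate error is therefore unknown here and no p-value can be given. The 95% intervals below cover counting error between 2 libraries only, not biological or technical variation.

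Between 31533129 and 35742335 reads were assigned to genes in a library, and markers of pluripotent stem cells (10 of 10 detected) summed to between 6181 and 6825 CPM, counts scaled to a common library size. Genes on the Y chromosome stood apart: 8 of them summed to 4 reads in the control library, 672 in the knockdown, 105 with the wild type and 602 with the mutant. Genes of chromosome 12 had a median log2 ratio of -0.29 in shYthdf2+EV against shScram+EV (418 genes with a mean of at least 200 reads). No reader lies on chromosome 12 or Y, and leaving those chromosomes and the mitochondrial genes out of the scaling moved no reader past its counting interval. The 4 libraries thus differed in more than *Ythdf2*, and what the hairpin or construct did cannot be told apart from such differences between lines.

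Whether the counts of the 3 YTHDF paralogs can be separated depends on how alike their transcripts are. The sequences shown are the longest runs of identical bases between each pair of transcripts, in capitals, in the sense of the transcript from 5′ to 3′ (GENCODE vM21 transcripts on mm10, all in coding exons). *Ythdf1* and *Ythdf2* shared at most 22 bases in a row, at chr2:180911606-180911635 and chr4:132205099-132205128, both on the minus strand.
Ythdf1: agccATTGCTAGCAAGCCTGCAAAACcaca
Ythdf2: tgatATTGCTAGCAAGCCTGCAAAACaaca
*Ythdf1* and *Ythdf3* shared at most 17 bases, at chr2:180911135-180911163 (minus strand) and chr3:16204948-16204976 (plus strand).
Ythdf1: atcatcAAGAGCTATTCTGAGGAcgacat
Ythdf3: ataattAAGAGCTATTCTGAGGAtgatat
*Ythdf2* and *Ythdf3* also shared at most 17 bases, at chr4:132205005-132205033 (minus strand) and chr3:16204508-16204536 (plus strand).
Ythdf2: acatggATATTGGAACTTGGGATaacaag
Ythdf3: acatgaATATTGGAACTTGGGATgaaaag
These runs are far shorter than the 150-base reads, and only 3 of the 3165 stretches of 20 bases in *Ythdf1* occurred in *Ythdf2*. A read that crosses such a run carries bases on either side that differ between the paralogs, as the lower-case letters show. No annotated exon of another gene overlapped the exons of a YTH gene in the deposited table. Among the other readers, *Cbx3* overlapped 124 exon bases of *Hnrnpa2b1* (2.34% of them) and *Malsu1* overlapped 103 of *Igf2bp3*, each from the opposite strand, and *Mir3063*, with 0 reads, overlapped 92 bases of *Igf2bp1*. Counting took no account of strand.

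Levels were compared between genes per length, as RPKM, reads per kilobase of annotated exon at a common library size (TMM-scaled). In shScram+EV, *Hnrnpa2b1* had the highest level of the readers (306) and *Ythdc2* the lowest (4.16). Between them came *Igf2bp1* (61.5), *Igf2bp2* (41.5), *Ythdf1* (38.5), *Ythdc1* (26.1), *Ythdf2* (21.8), *Fmr1* (21.4), *Ythdf3* (21.2) and *Igf2bp3* (10.4). The intervals of *Ythdf2*, *Fmr1* and *Ythdf3* overlapped, as did those of *Igf2bp2* and *Ythdf1*, so the order within these 2 sets was not resolved, and *Ythdf1* was the most abundant YTHDF transcript of the control cells. The order depended on the length used. Over the length of a single coding transcript in place of all annotated exons, the level of *Hnrnpa2b1* in shScram+EV became 940, that of *Igf2bp3* became 33.7, above *Fmr1*, *Ythdf3* and *Ythdf2*, and that of *Ythdc1* became 43.7, above *Igf2bp2* and *Ythdf1*. Ratios of a single gene between libraries do not depend on this choice, but sums over several genes do.

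**Figure D1:**
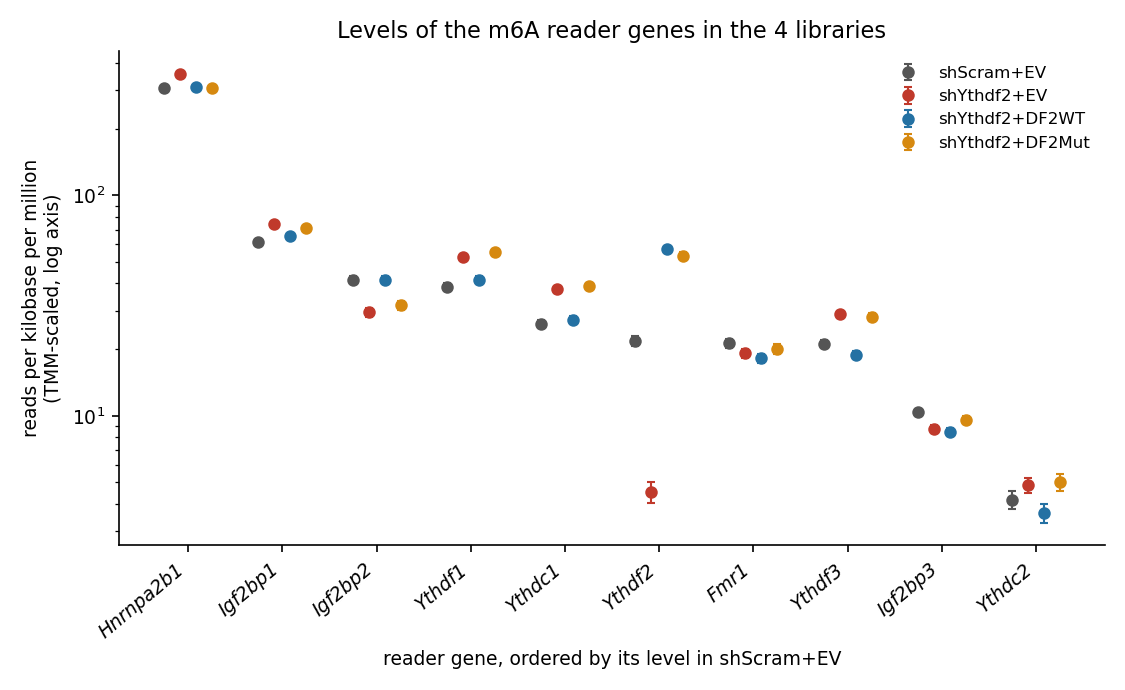
Level of each reader gene in RPKM (log axis) in the 4 libraries, with 95% counting intervals; genes are ordered by their level in shScram+EV. *Ythdf2* spans 4.52 to 57.1 across libraries, while each other reader stays within a highest-to-lowest ratio of 1.53.

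*Ythdf2*, the targeted gene (chr4:131912227-131939567, minus strand, mm39, 5 merged exons), was counted at 2806 reads in the control library, 662 in the knockdown, 7661 with the wild type and 6925 with the mutant. It was lowest in the knockdown library, as its label says, and highest in both libraries with a construct. By level over annotated exons it ranked 6 of 10 in shScram+EV and 10 of 10 in shYthdf2+EV, where its 4.52 RPKM lay within the interval of *Ythdc2* (4.45 to 5.26). Over a single coding transcript it ranked 9 of 10 in both, so this change of rank depends on the length used. Over annotated exons it ranked 3 of 10 in shYthdf2+DF2WT (57.1 RPKM), above *Ythdf1*. In shYthdf2+DF2Mut it ranked 4 of 10 (53.4 RPKM), with an interval overlapping that of *Ythdf1* (53.2 to 57.3). In both libraries with a construct the gene thus lay above the control library, with log2 ratios to shScram+EV of 1.39 (95% interval 1.30 to 1.48) and 1.29 (1.20 to 1.38). The count of *Ythdf2* does not separate the construct from the chromosomal gene. Its level per length was taken over the 4078 annotated exon bases of the chromosomal gene in every library. How many of these bases the construct carries is not stated. Its ranks, and shares and sums that include it, are therefore not strictly comparable with other genes in the libraries with a construct.

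The first comparison asked how the readers behaved when *Ythdf2* was knocked down. A log2 ratio of at least 0.32 in either direction was taken as a change worth counting, without a test. By it 3 of the 10 readers were higher and 2 lower in the knockdown library, beside 24.1% of all genes higher and 23.4% lower. Among the 10817 genes with a mean of at least 200 reads, where all 10 readers lie, the shares were 16.2% and 15.1%. The readers' counts are small, and no test sets them apart from these shares. The median log2 ratio of the 10 readers was 0.22, beside a median near 0 of all genes tested (-0.0015). The higher readers were all YTH genes, and the lower ones were *Ythdf2* itself and *Igf2bp2*. At 2-fold only *Ythdf2* was past the limit (7.10% of all genes higher, 5.70% lower).

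*Ythdf1* (chr2:180546170-180562729, minus strand, mm39), which in other systems is associated with translation of methylated transcripts, had 3855 reads in the control library, 5992 in the knockdown, 4325 with the wild type and 5567 with the mutant. It was high in the knockdown and mutant libraries and low in the control and wild-type libraries. Its log2 ratio of knockdown to control was 0.45 (0.37 to 0.53), or 1.37-fold.

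*Ythdf3* (chr3:16237309-16271201, plus strand, mm39), the paralog that cooperates with both others, had 3985 reads in the control library, 6190 in the knockdown, 3711 with the wild type and 5317 with the mutant. The same 2 libraries were high. Its log2 ratio in the knockdown was also 0.45 (0.37 to 0.53), so the share of *Ythdf1* in their summed level per length was 64.5% in both shScram+EV and shYthdf2+EV.

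*Ythdc1* (chr5:86951349-86984518, plus strand, mm39), the nuclear reader, had 4514, 7382, 4908 and 6760 reads in the control, knockdown, wild-type and mutant libraries. Its ratio in the knockdown, 0.52 (0.45 to 0.60), was thus as large as those of the cytoplasmic paralogs, with overlapping intervals. *Ythdc2* (chr18:44961521-45022787, plus strand, mm39) had the fewest reads of the readers other than knocked-down *Ythdf2*: 855, 1133, 778 and 1036 in the same order. Its log2 ratio of 0.22 (0.03 to 0.40) stayed within the limit. All 4 YTH genes other than *Ythdf2* were therefore above the control library in the knockdown, by amounts that ran from 1.16-fold to 1.44-fold.

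Ratios of this size were found in many other genes. Of all genes tested, 18.1% had a ratio at least as high as that of *Ythdf1* and 15.5% one at least as high as that of *Ythdc1*. For *Ythdf2* itself, 0.490% of all genes tested had a ratio as low.

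**Figure D2:**
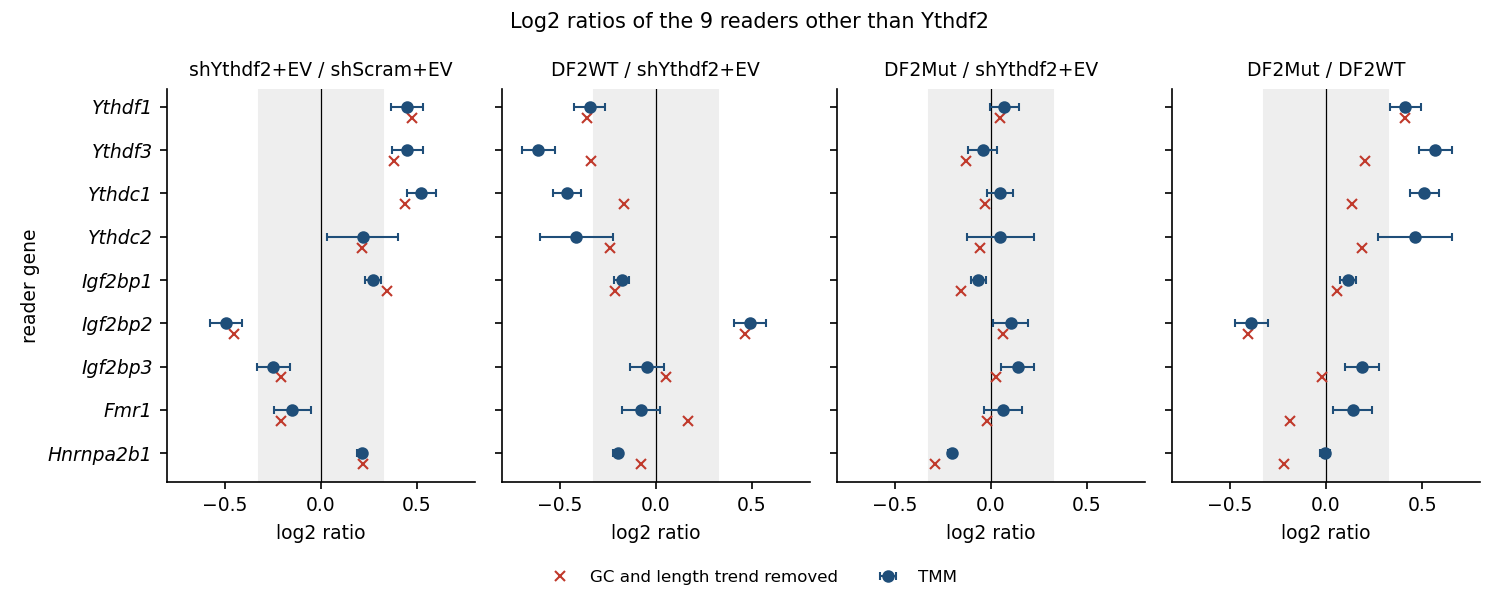
Log2 ratios (horizontal axis) of the 9 readers other than *Ythdf2* in 4 comparisons, with 95% counting intervals (dots) and after removal of the trend on GC content and length over all genes (crosses); the grey band marks ratios within 0.32. In shYthdf2+EV against shScram+EV the crosses of *Ythdf1*, *Ythdf3* and *Ythdc1* (0.52 to 0.44) stay outside the band and that of *Igf2bp1* leaves it (0.27 to 0.34), while in shYthdf2+DF2Mut against shYthdf2+DF2WT the crosses of *Ythdf3*, *Ythdc1* and *Ythdc2* fall inside the band.

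To set the paralogs beside the loss of *Ythdf2* transcript, the levels of the 3 YTHDF genes per length were summed. The sum was 81.4 ± 2.26 RPKM in shScram+EV and 86.0 ± 2.19 in shYthdf2+EV (± gives the 95% counting interval). It was thus 106% of the control, although the level of *Ythdf2* fell by 17.3. *Ythdf1* was higher by 14.1 and *Ythdf3* by 7.74, together 21.8 or 126% of the loss of *Ythdf2*. This percentage depends on the length used. Over a single coding transcript *Ythdf3* was at 24.7 in shScram+EV and 33.8 in shYthdf2+EV, in place of 21.2 and 28.9 RPKM. The makeup of the sum thus differed more between the 2 libraries than its size: the share of *Ythdf2* was 26.7% in shScram+EV and 5.25% in shYthdf2+EV, while that of *Ythdf1* was 47.3% and 61.1% and that of *Ythdf3* 26.0% and 33.6%. These are transcript levels, and protein was not measured in these files.

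In the libraries with a construct the sum was larger, 117 ± 2.66 RPKM with wild-type YTHDF2 (144% of the control) and 137 ± 2.92 with the mutant (168%). Both sums take *Ythdf2* over annotated exons, although the length of the construct's transcript is not known. Their *Ythdf2* levels were close (57.1 and 53.4), and the difference lay in the paralogs. *Ythdf1* and *Ythdf3* together were 59.6 in shScram+EV and 60.4 in shYthdf2+DF2WT, but 81.5 in shYthdf2+EV and 83.3 in shYthdf2+DF2Mut. In relation to the control these were 101% with the wild type, 137% in the knockdown and 140% with the mutant.

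**Figure D3:**
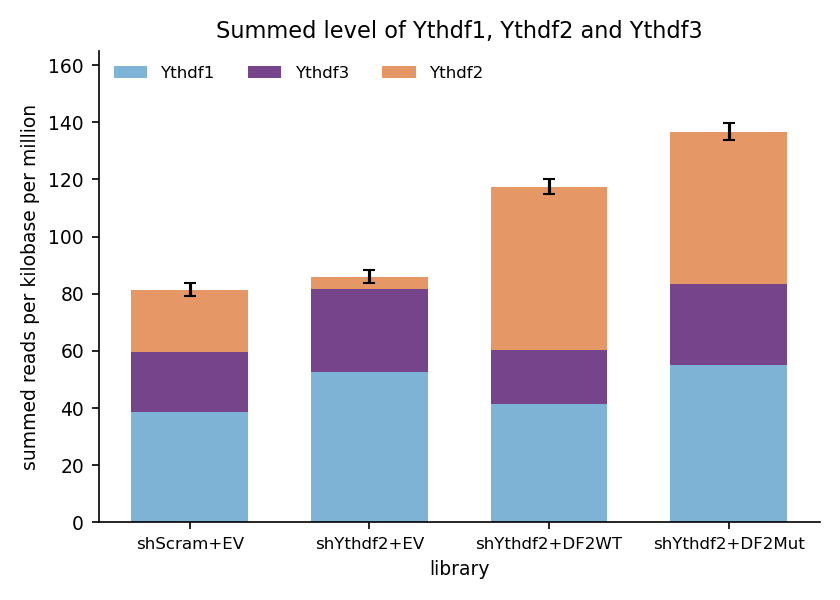
Summed level of *Ythdf1*, *Ythdf3* and *Ythdf2* in RPKM in each library; error bars are 95% counting intervals of the sum. The lower 2 segments, *Ythdf1* and *Ythdf3*, reach about the same height in shScram+EV and shYthdf2+DF2WT (59.6 and 60.4) and a greater one in shYthdf2+EV and shYthdf2+DF2Mut (81.5 and 83.3).

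The second comparison asked what returned when YTHDF2 was put back. With the wild type, 2 readers were higher and 4 lower than in shYthdf2+EV by that limit, beside 22.3% of all genes higher and 21.0% lower (13.4% and 12.7% of genes with a mean of at least 200 reads). The 2 higher ones were *Ythdf2* and *Igf2bp2*, and the 4 lower ones were the other YTH genes. Past 2-fold there was *Ythdf2* alone, beside 5.15% of all genes higher and 5.58% lower. *Ythdf1* had a log2 ratio of -0.34 (-0.42 to -0.26), *Ythdf3* one of -0.61 (-0.69 to -0.53), *Ythdc1* one of -0.46 (-0.54 to -0.39) and *Ythdc2* one of -0.41 (-0.60 to -0.23). This comparison shares the shYthdf2+EV library with the first, so opposite signs in both are partly built in. Against shScram+EV, which was not used in it, the 4 genes lay in shYthdf2+DF2WT at log2 ratios of 0.11, -0.16, 0.06 and -0.19, all within the limit. In that comparison only *Ythdf2* of the 10 readers was past the limit, and higher, beside 19.1% of all genes higher and 14.9% lower.

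With the mutant, *Ythdf2* alone was past the limit against shYthdf2+EV, and higher, beside 13.5% of all genes higher and 17.4% lower (3.48% and 7.89% of genes with a mean of at least 200 reads). The other 9 readers lay between -0.20 and 0.14. For *Ythdf1* the ratio was 0.07 (-0.00 to 0.15), for *Ythdf3* -0.04 (-0.12 to 0.03) and for *Ythdc1* 0.05 (-0.02 to 0.12). The upper end of the counting interval for *Ythdf1* was 0.15, beside its 0.45 between knockdown and control. It does not bound the difference between cultures, because replicate error is unknown. Both ratios also use the shYthdf2+EV library. Against shScram+EV, the mutant library had 4 readers higher and 1 lower (21.7% and 23.6% of all genes): *Ythdf2*, *Ythdf1* (0.52), *Ythdf3* (0.41) and *Ythdc1* (0.57) were higher and *Igf2bp2* (-0.39) lower.

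The third comparison set the mutant against the wild type, libraries with the same hairpin and with *Ythdf2* counts that differed little (log2 ratio -0.10, -0.16 to -0.03). With the mutant, 4 readers were higher and 1 lower by the same limit, beside 23.6% of all genes higher and 27.0% lower (17.5% and 19.5% of genes with a mean of at least 200 reads). The log2 ratios were 0.41 (0.33 to 0.50) for *Ythdf1*, 0.57 (0.48 to 0.65) for *Ythdf3*, 0.51 (0.44 to 0.59) for *Ythdc1* and 0.46 (0.27 to 0.66) for *Ythdc2*. *Igf2bp2* was the lower one, at -0.39 (-0.47 to -0.30). No reader was past 2-fold (5.40% of all genes higher, 6.21% lower).

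In this pair of libraries, however, ratios followed the GC content of the transcript over all genes, and 3 of the 4 higher readers are poor in G and C. GC content was 37.6% in *Ythdc1*, 38.4% in *Ythdf3* and 42.0% in *Ythdc2*, against 49.1% in *Ythdf1*, 49.7% in *Igf2bp2* and a median of 49.9% over the genes with a value. Among the 576 genes of 36 to 40% GC with a mean of at least 200 reads, the median log2 ratio between mutant and wild type was 0.30 and 46.2% were past the limit higher; among the 2251 genes of 48 to 52% GC, 11.9% were. After the trend on GC content and length was removed, *Ythdf3* was at 0.21, *Ythdc1* at 0.14 and *Ythdc2* at 0.19, all within the limit, whereas *Ythdf1* stayed at 0.41 and *Igf2bp2* at -0.40. The share of all genes past the limit fell as well, to 11.9% higher and 13.3% lower of the 10512 genes with a GC value and a mean of at least 200 reads, against the 17.5% and 19.5% of the 10817 such genes before it. The same trend was present wherever the wild-type library was compared: genes of 36 to 40% GC had a median of -0.24 against shYthdf2+EV and -0.17 against shScram+EV. A smaller slope was present without that library. In shYthdf2+DF2Mut against shScram+EV the median ran from 0.12 at 36 to 40% GC to -0.09 at 56 to 60%. Against shYthdf2+EV it ran from 0.07 to -0.07. With the trend removed, *Ythdf3* in mutant against shScram+EV went from 0.41 to 0.25, within the limit.

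Between shYthdf2+EV and shScram+EV the genes of 36 to 40% GC had a median of only 0.07. Of them 20.3% were past the limit higher and 7.29% lower, against 15.2% and 15.7% of genes of 48 to 52% GC. With the trend removed, the log2 ratios of the knockdown were 0.47 for *Ythdf1*, 0.38 for *Ythdf3* and 0.44 for *Ythdc1*, and each stayed past the limit, beside 14.7% of all genes higher and 15.1% lower after the same correction. With it removed from wild type against shYthdf2+EV, *Ythdf1* was at -0.36 and *Ythdf3* at -0.34, but *Ythdc1* at -0.17 and *Ythdc2* at -0.24, beside 11.2% of all genes higher and 10.2% lower. Of the YTH genes other than *Ythdf2*, then, *Ythdf1* alone stayed past the limit, with the trend removed, in all 4 comparisons in which it had been past it. *Ythdf3* did so in 2 of its 4, both with the knockdown library, and *Ythdc1* in 2 of its 4, both with the control library.

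**Figure D4:**
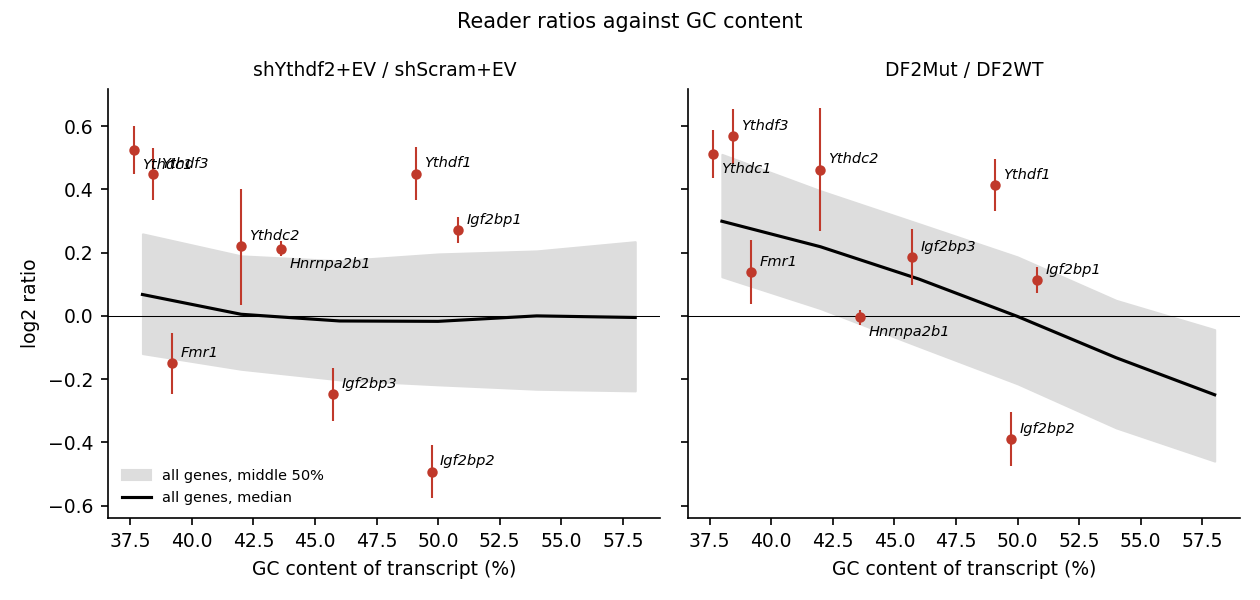
Log2 ratio of the 9 readers other than *Ythdf2* against the GC content of their transcript (percent), with 95% counting intervals; the line and grey band are the median and middle 50% of all genes with a mean of at least 200 reads. The line is near 0 for shYthdf2+EV against shScram+EV and slopes from 0.30 to -0.25 for shYthdf2+DF2Mut against shYthdf2+DF2WT.

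The knockdown pair (shYthdf2+EV and shScram+EV) and the construct pair (shYthdf2+DF2Mut and shYthdf2+DF2WT) have no library in common, so the readers can be read across both. *Ythdf1*, *Ythdf3* and *Ythdc1* were past the limit higher in each, 3 of the 10 readers, beside 6.74% of the 10817 genes with a mean of at least 200 reads. *Igf2bp2* was past it lower in each, 1 of 10, beside 7.34%. With the GC and length trend removed, *Ythdf1* alone of the readers was past the limit higher in both pairs, beside 6.37% of the 10512 such genes with a GC value, and *Igf2bp2* lower, beside 7.02%. The share of all genes thus hardly changed with the correction (6.48% and 7.19% of the same genes before it), and 1 of 10 readers in either direction is near it. No reader was past the limit in opposite directions in the 2 pairs.

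**Figure D5:**
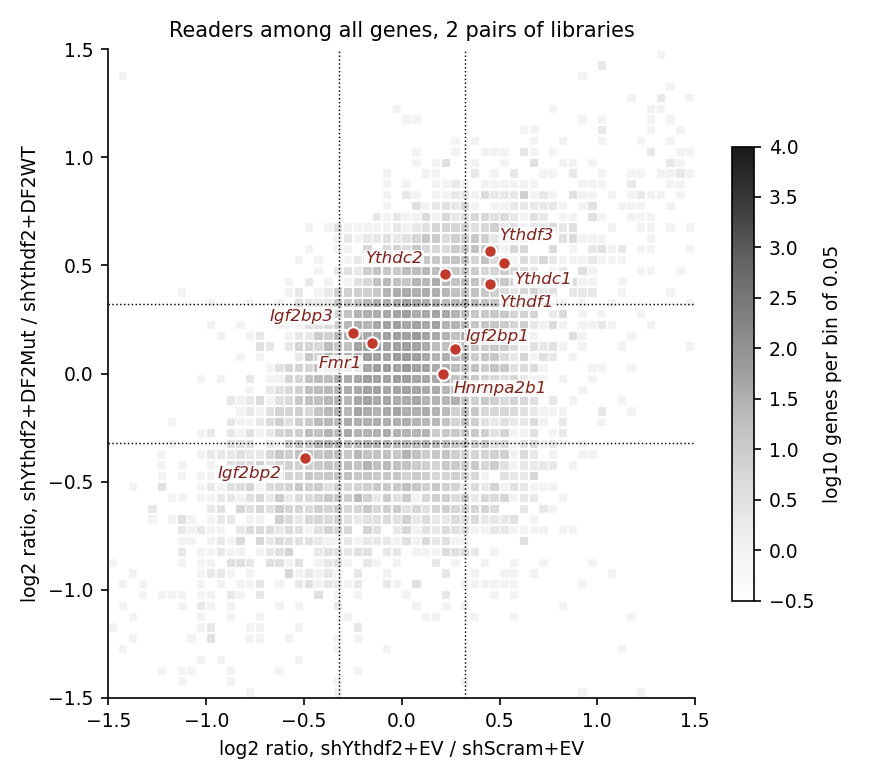
Log2 ratio of the knockdown pair (horizontal) against that of the construct pair (vertical) for the 9 readers other than *Ythdf2* (red) over the density of 10707 genes with a mean of at least 200 reads (grey, log10 genes per bin; 110 genes fall outside the axes); dotted lines mark 0.32 in either direction. *Ythdf1*, *Ythdf3* and *Ythdc1* lie in the upper right field and *Igf2bp2* in the lower left.

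The summed markers of some cell states differed in the same order of the libraries, though not every marker did. All 10 markers of the 2C-like state, a rare state of cultured ESCs with genes of the 2-cell embryo, were detected, and they summed to 206 CPM in the control library, 577 in the knockdown, 240.6 with the wild type and 574 with the mutant. Of them, 8 were higher in both the knockdown and mutant libraries than in the other 2, the exceptions being *Tcstv1* and *Gm4340*. Of the 10 pluripotency markers, whose sum is given above, 2 (*Zfp42* and *Klf4*) were higher in those 2 libraries and 2 (*Esrrb* and *Tdgf1*) lower. The 6 markers of primitive endoderm, all detected, summed to 16.2, 22.7, 12.5 and 23.9 CPM in the same order, but *Gata4* (133, 121, 72 and 71 reads) and *Sox17* (20, 42, 16 and 20) did not follow the sum. The 5 of trophectoderm summed to 82.4, 58.0, 79.3 and 57.6 CPM, nearly all of it from *Tfap2c* and *Krt18*, whereas *Gata3* (27, 30, 46 and 53 reads) and *Cdx2* (8, 11, 10 and 14) did not follow it. Fibroblast markers (6 genes, with *Lum* at 0 in every library and *Col3a1* at 0 in the control and wild-type ones) summed to 16.5, 11.6, 11.4 and 10.9 CPM and did not follow that order of the libraries, whereas the Y-linked reads given above did. Most of these reads were from *Thy1* (448, 296, 317 and 243), whereas *Col1a1* (51, 82, 50 and 87) and *Col3a1* (0, 5, 0 and 2) were higher in the knockdown and mutant libraries. The part of cell states or of differences between lines in the levels of *Ythdf1*, *Ythdf3*, *Ythdc1* and *Igf2bp2* was not tested, and in bulk RNA a change in the number of cells of a state and a change in RNA per cell cannot be told apart.

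The 3 *Igf2bp* genes encode paralogous RNA-binding proteins with KH domains. They did not move as a group. *Igf2bp1* (chr11:95847989-95896770, minus strand, mm39) had 16299 reads in the control library, 22392 in the knockdown, 18121 with the wild type and 18939 with the mutant, with a log2 ratio of 0.27 (0.23 to 0.31) in the knockdown. This was within the limit, but became 0.34 after removal of the GC and length trend. *Igf2bp2* (chr16:21877759-21982049, minus strand, mm39) had 5113, 4134, 5322 and 3928 reads in the same order, the mirror image of *Ythdf1*. Its log2 ratio was -0.49 (-0.58 to -0.41) in the knockdown, and the wild-type library was level with the control (-0.00, -0.08 to 0.08). *Igf2bp3* (chr6:49062152-49200225, minus strand, mm39) had 4627, 4434, 3926 and 4319 reads and stayed within the limit in all 6 comparisons. The sum of the 3 genes per length was 113 RPKM in the control and 113 in the knockdown, 116 with the wild type and 112 with the mutant. Over annotated exons it therefore lay between 99.1% and 102% of the control, with the higher *Igf2bp1* and the lower *Igf2bp2* in the knockdown nearly equal in size. The sum depends on the length used. Over a single coding transcript *Igf2bp3* was at 33.7 in the control and 28.4 in the knockdown, in place of 10.4 and 8.72 RPKM.

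*Fmr1* and *Hnrnpa2b1*, which have no YTH domain, differed little between libraries. *Fmr1* (chrX:67722142-67761569, plus strand, mm39), whose product FMRP binds polyribosomal mRNA, had 3475, 3564, 3094 and 3293 reads in the control, knockdown, wild-type and mutant libraries, with a highest-to-lowest ratio of levels of 1.17. *Hnrnpa2b1* (chr6:51437414-51448054, minus strand, mm39), an abundant nuclear splicing factor, had 51313, 67639, 53976 and 52005 reads and a ratio of 1.16. With the GC and length trend removed these ratios were 1.17 and 1.23, and that of *Igf2bp3* was 1.15 in place of 1.23. *Hnrnpa2b1* was highest in shYthdf2+EV (log2 ratio 0.21, 0.19 to 0.24) and level among the other 3 libraries, so it did not follow the order of *Ythdf1*. Both stayed within the limit in all 6 comparisons.

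YTHDF2 acts on methylated transcripts, and m6A is placed in a short sequence context of which GGACT, as DNA letters, is the best known form. These files hold no m6A measurement, so the letters were only counted on the sense strand of 1 transcript per gene. For the readers this was the longest coding transcript, and for the shares over all genes the longest transcript of any type. Of the 16726 tested genes with a transcript, 88.5% held at least 1 GGACT over their whole, differing lengths, with a median of 1.02 per kilobase. The density was below this median in 7 of the 10 readers, although the kinds of transcript compared are not alike. *Ythdf1* had 1 (0.314 per kilobase), *Ythdf3* 1 (0.196) and *Ythdc1* 2 (0.612), and of readers that were not past the limit higher in the knockdown *Ythdc2* had 3 (0.416), *Igf2bp3* 2 (0.460) and *Fmr1* 2 (0.454). *Ythdf2* had 5 (1.21 per kilobase), *Igf2bp2* 5 (1.28) and *Igf2bp1* 10 (1.19), while *Hnrnpa2b1* had none. The coding GGACT nearest to the stop codon of each YTHDF gene is shown with 10 bases on either side and the motif in capitals, because those of *Ythdf1* and *Ythdf2* fall at nearly the same place in the coding sequence. They have 305 coding bases after the motif in *Ythdf1* (chr2:180910958-180910982, minus strand, mm10), 302 in *Ythdf2* (chr4:132204403-132204427, minus strand) and 1174 in *Ythdf3* (chr3:16204257-16204281, plus strand), each in exon 4.
Ythdf1: agtcccctgtGGACTacggcaccag
Ythdf2: aatctgctgtGGACTacaacacatg
Ythdf3: aggcatgactGGACTgaaaattggt
A match of letters does not show that a base is methylated or bound.

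The rest of the m6A pathway was examined in 44 further genes, listed by role and all counted. In the knockdown, 5 of them were past the limit higher and 2 lower, with a median log2 ratio of -0.01. With wild-type YTHDF2 against shYthdf2+EV, 1 was higher and 3 lower, and with the mutant against the wild type 5 were higher and 3 lower. These counts are shares no larger than those of all genes given above.

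Of the 8 writer genes, 1 was past the limit in the knockdown, *Rbm15b*, an adaptor of the writer complex, at 0.34 (0.22 to 0.46). The catalytic subunits were close to the control, with *Mettl3* at -0.15 (-0.31 to 0.01) and *Mettl14* at 0.14 (-0.01 to 0.28). Neither eraser was past the limit, *Fto* at -0.24 (-0.35 to -0.14) and *Alkbh5* at -0.01 (-0.11 to 0.09). None of the 4 partners of the YTHDF2 decay route was either: *Cnot1*, the scaffold of CCR4-NOT, was at -0.24 (-0.28 to -0.21), *Upf1* at -0.02, *Rida*, which encodes the adaptor HRSP12, at 0.12 and *Pop1*, of RNase P and MRP, at 0.14.

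The pathway genes past the limit were spread over the other lists. *Srsf3*, a splicing factor that binds YTHDC1, had 13143 reads in the control library, 23872 in the knockdown, 16184 with the wild type and 18857 with the mutant, a log2 ratio of 0.68 (0.63 to 0.72) in the knockdown. *G3bp2*, a stress granule protein, had 18299, 27747, 18646 and 26401 reads, high in the same 2 libraries as *Ythdf1*, with log2 ratios of 0.41 (0.38 to 0.45) in the knockdown pair and 0.55 (0.51 to 0.59) in the construct pair. Its paralog *G3bp1* was at 0.18 and 0.01. *Trmt112*, the cofactor of several methyltransferases, was at 0.48 (0.27 to 0.69) and *Hnrnpa0* at 0.33 (0.26 to 0.39) in the knockdown, but both were lower with the mutant than with the wild type (-0.50 and -0.35). On the lower side, *Ybx1*, a cold-shock domain protein, was at -0.32 (-0.35 to -0.30), and *Rbm46* rested on 29 to 45 reads per library and could not be resolved (-0.49, -1.67 to 0.54). The paralogs of *Fmr1* stayed within the limit, *Fxr1* at -0.22 and *Fxr2* at -0.07.

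To see which genes had a pattern most like that of a YTHDF gene, log2 CPM profiles over the 4 libraries were centred and compared by Euclidean distance among the 10817 genes with a mean of at least 200 reads. With only 4 points per profile many genes lie close. Nearest to *Ythdf1* were *Utp14b* (distance 0.023), *Cth*, *Slc16a6*, *Adcy7* and *Dlc1* (0.032), and *Ythdc1* ranked 88 (0.092), closer than *Ythdf3*, which ranked 840 (0.220). Nearest to *Ythdf3* were *Zfx* (0.023), *4933438K21Rik*, *Ccdc38*, *Tmem67* and *Kcns3* (0.040), and there *Ythdc1* ranked 231 and *Ythdc2* 265, both ahead of *Ythdf1* at 475. These distances depend on the GC trend between libraries. With it removed, *Ythdc1* and *Ythdf3* were about equally far from *Ythdf1* (0.199 and 0.200, ranks 774 and 786 of 10512 genes), and the 5 nearest genes to *Ythdf1* were others, led by *Fbxw9* (0.011). No gene resembled *Ythdf2*, whose nearest were *Car12* (2.14), *Rgs22*, *Kcnj12*, *Gnb5* and *Sorbs3* (2.33).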

How the data were processed

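The authors deposited 1 table of read counts per gene with summed exon lengths, which the file header says was made with featureCounts 2.0.3 and a RefSeq annotation of mm39 from UCSC. Reads, not pairs, were counted, without strand, and reads aligned to several places or genes were left out. The submitters' processing notes list fastp 0.19.4, HISAT2 2.2.1, DESeq2 1.40.2 and mm10, which differs from the header. Libraries were poly(A)-selected and paired-end (150 bases), per the study.

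TMM scaling by edgeR 4.0.16 (R 4.3.3) gave factors of 0.976, 1.01, 1.01 and 1.01 for the control, knockdown, wild-type and mutant libraries, from genes with a mean of at least 10 reads. A prior count of 0.5 was added before log2 ratios were taken. Intervals are 95% Clopper-Pearson intervals on read pairs (reads divided by 2); amplified reads are not independent molecules. Genes were counted past a log2 ratio of 0.32 in either direction (alternatively 1.5-fold or 2-fold) without a test. The code was tested on simulated data. GC content was available for 90.0% of the genes, and its trend was a quadratic in GC content and log2 exon length fitted to genes with a mean of at least 200 reads.

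Named genes were all 10 readers, up to 3 pathway genes per list and direction past that limit in the knockdown, the 5 nearest profiles of each YTHDF gene, genes whose exons overlap a reader, and the Y-linked sum; the other pathway genes were named after their values were seen. Readers and lists were chosen with earlier results of these data known. Protein sequences and hairpin target sites are not shown here.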

Additional observations from a re-analysis of the deposited data

How the results depend on the processing

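No paired analysis was possible because each group has 1 library, and for the same reason no replicate could be left out. Of 580 values under other settings for 87 results, 520 moved by less than their counting interval (counts and shares of genes by at most 1.5 times), 60 moved further and 0 changed sign past a log2 ratio of 0.32. The settings were upper-quartile factors, total counts, size factors of DESeq2 1.42.0, TMM without mitochondrial, chromosome 12 and Y genes, a prior count of 5, GC and length correction, other folds and other minimum counts; TMM on all genes, single-transcript lengths and the corrected counts, shares of genes, spreads and distances were added after the data were seen.

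GC and length correction moved most. The log2 ratio of *Ythdf2* in mutant against wild type became -0.22. For *Ythdf3* it became -0.34 in wild type against shYthdf2+EV, -0.13 in mutant against shYthdf2+EV, 0.21 in mutant against wild type, 0.045 in wild type against shScram+EV and 0.25 in mutant against shScram+EV. The median of the 10 readers became -0.025 in mutant against shYthdf2+EV and 0.018 in mutant against wild type. The readers lower in wild type against shYthdf2+EV became 2 in place of 4, and those higher in mutant against wild type 1 in place of 4; the shares of all genes fell too, from 12.7% to 10.2% and from 17.5% to 11.9% (mean of at least 200 reads). With total counts the YTHDF sum was 109%, 149% and 173% of shScram+EV in shYthdf2+EV, shYthdf2+DF2WT and shYthdf2+DF2Mut, and with TPM it was 186% in the mutant.

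With upper-quartile factors *Ythdf1* in wild type against shYthdf2+EV was at -0.3217, just inside the limit of 0.3219. At 1.5-fold and at 2-fold, 0 readers were higher and 1 lower in the knockdown (13.8% and 12.9% of all genes at 1.5-fold), and 0 were higher and 0 lower in mutant against wild type (12.2% and 14.9%). In wild type against shYthdf2+EV 1 was higher at either fold, and 1 was lower at 1.5-fold and 0 at 2-fold (12.2% and 11.1% at 1.5-fold). Of genes with a mean of at least 200 reads in place of 10, 15.1% in place of 23.4% were lower in the knockdown, and 13.4% and 12.7% in place of 22.3% and 21.0% were higher and lower in wild type against shYthdf2+EV. Counting depth sets the width of the intervals; the spread between cultures is unknown.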
